A study of Mus musculus with 7 samples.

Results

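The prefrontal cortex (PFC) of control mice was described across genes from 3 bulk RNA-seq libraries, which are 3 of the 7 samples in the series. They were taken as the libraries whose labels place them in the control group (Ctr). Ctr mice were female C57BL/6 wild-type animals that had received a bilateral PFC injection of an empty recombinant adeno-associated virus (AAV-EV), whose human synapsin (hSyn) promoter drives an EGFP reporter in neurons. The same vector carried the C allele of the human lncRNA PAXIP1-AS1 in 2 Ref libraries and the G allele in 2 Alt libraries, and these 4 libraries were not used here. Behavior was tested 4 weeks after injection, but whether these mice were among those tested is not given in the sources used here. The control tissue was in any case not naive, since it had been through surgery, needle passage and virus. Nothing in the labels says how many animals stand behind each library or how old they were, so the spread between libraries may be partly technical. The transcripts made by the vector were not analysed here.

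The PFC is a layered cortex in which excitatory projection neurons release glutamate and a smaller population of local interneurons releases GABA. Fast excitation runs through AMPA, NMDA and kainate receptors, and fast inhibition through GABA-A receptors, all of them assemblies of subunits that are encoded by separate genes. Dopamine, serotonin, noradrenaline and acetylcholine reach the PFC mainly in axons whose cell bodies lie elsewhere, so that cortical tissue holds the receptors for these transmitters but little of the RNA for making them. Astrocytes, oligodendrocytes, microglia and vessels make up the rest of the tissue. In such bulk tissue, fewer cells of a type and less RNA per cell cannot be told apart.

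The total count on genes was 19382848, 19982946 and 20750857 in Ctr replicates 1, 2 and 3, which are named Ctr 1, Ctr 2 and Ctr 3 below, and values of the 3 libraries are always given in this order. Levels are in TPM, in which counts are divided by gene length and then scaled to a fixed sum in every library, so that genes can be compared with each other. Mitochondrial genes took 13.6%, 14.2% and 12.2% of the counts but 37.1%, 39.9% and 34.9% of TPM, and every nuclear TPM is scaled by what they leave. No count was found on the Y-linked genes Ddx3y, Eif2s3y, Kdm5d and Uty in the 3 libraries, and all genes listed on the Y chromosome summed to 44, 21 and 63 counts. The female-specific lncRNA Xist lay at 76.6, 106 and 147 TPM. Ctr 2 stood apart in genes of the olfactory bulb, whose summed level was 4.70, 14.5 and 4.75 TPM.

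Of 55416 genes in the table, 13945 reached 1 TPM in every library, and 12512 of these were protein-coding, which is 57.2% of all protein-coding genes listed. A further 627 were lncRNAs and 615 were pseudogenes. At the other end, 32142 genes had no count in any of the libraries, among them 5698 protein-coding genes. The nuclear transcriptome was not dominated by a few genes. The 10 most abundant nuclear genes held 4.11% ± 0.13 (SD, n = 3) of nuclear TPM, the top 100 held 17.7% ± 0.26, and the top 1000 held 50.01% ± 0.70. In all 3 libraries 35 nuclear genes stood at or above 1000 TPM and 1127 at or above 100 TPM.

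By mean level the most abundant nuclear transcript was Cpe, which encodes carboxypeptidase E, the enzyme that trims neuropeptide precursors. It lay at 3749, 3699.9 and 3719.9 TPM, with an SD of 24.7 over the libraries, and was the highest nuclear messenger RNA in each, although Rn18s exceeded it in Ctr 2 and Gm29216 in Ctr 3. Eef1a1, a translation elongation factor, followed with 3133, 2916 and 3024 TPM. The ranges of Cpe and Eef1a1 did not overlap, whereas the other 23 of 24 neighbouring pairs among the top 25 did. Gpm6a, a membrane glycoprotein of neurons, reached 2548, 2802 and 2447 TPM, and the ribosomal protein gene Rplp1 reached 2445, 2256 and 2924 TPM.

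**Figure D1:**
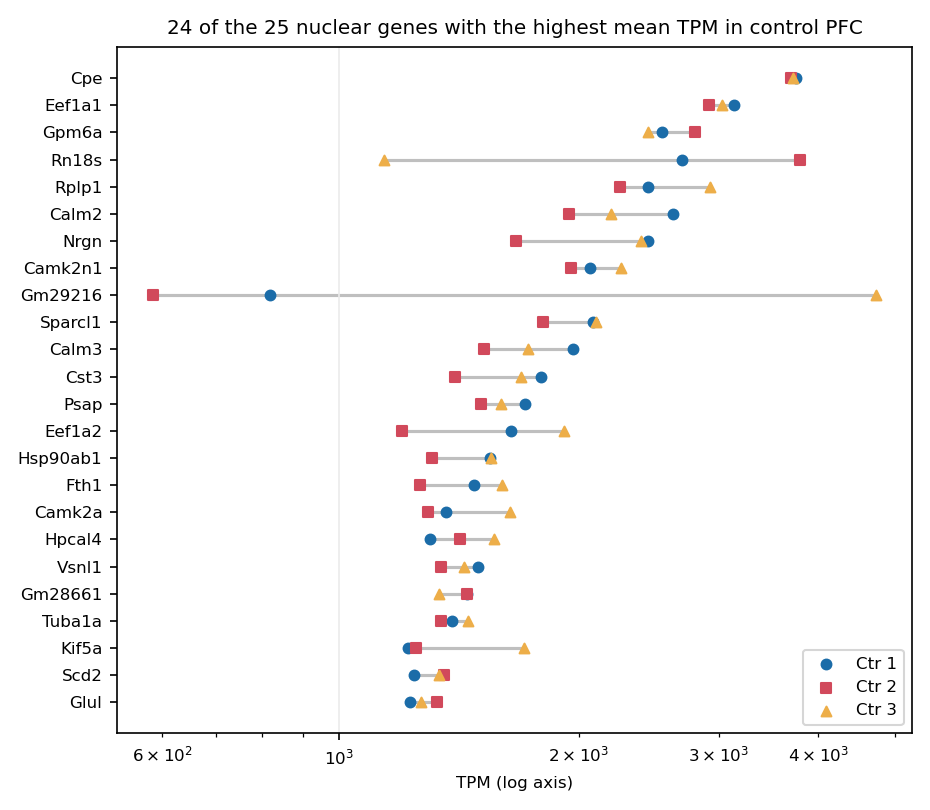
TPM (log axis) of nuclear genes among the 25 with the highest mean TPM, with 1 point per control library and a grey line from the lowest to the highest. Rn18s and Gm29216 spread far more widely than their neighbours, while Cpe, Tuba1a and Glul stay close together.

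Several genes for calcium signaling were among the 25 most abundant nuclear genes, and they were picked out after the ranking was seen. Calm2 and Calm3, which encode the calcium sensor calmodulin, were among them, with 2631, 1944 and 2195 TPM for Calm2 and 1967, 1519 and 1726 TPM for Calm3. Calm2 was the higher in every library, but by counts, which are not divided by gene length, it was the lower in each (23129, 17313 and 19407 beside 28569, 22336 and 25203). Partners of calmodulin were also in the list. Nrgn, a postsynaptic protein that holds calmodulin at low calcium, lay at 2442, 1669 and 2396 TPM. Camk2a, the alpha subunit of calcium/calmodulin-dependent kinase II, lay at 1362, 1292 and 1638 TPM, and Camk2n1, an inhibitor of that kinase, at 2069, 1958 and 2260.2 TPM. The neuronal calcium sensors Vsnl1 (1493, 1344 and 1434 TPM) and Hpcal4 (1301, 1419.8 and 1567 TPM) were also in the ranking.

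Calm2 and Calm3 show how similar transcripts can be and still be told apart by reads. They lie on chromosome 17 (Calm2, 87740840 to 87754363) and chromosome 7 (Calm3, 16649304 to 16658039) in the coordinates of the deposited table, whose build is not given. Translated from the GENCODE M21 transcripts (GRCm38), their 450 coding bases give proteins of 149 amino acids with 0 differences, yet the coding bases are 82.7% identical. The first 150 coding bases are printed because they carry differences that separate the counts of the pair, and the 23 positions where the genes differ are in capitals, of 78 such positions in the whole coding sequence.
Calm2: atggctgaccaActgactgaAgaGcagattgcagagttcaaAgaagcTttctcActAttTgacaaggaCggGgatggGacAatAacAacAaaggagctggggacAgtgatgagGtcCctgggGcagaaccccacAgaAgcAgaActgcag
Calm3: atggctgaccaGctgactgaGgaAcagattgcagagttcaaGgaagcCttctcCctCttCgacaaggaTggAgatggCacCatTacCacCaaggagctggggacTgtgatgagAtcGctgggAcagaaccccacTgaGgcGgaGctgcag

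The remaining nuclear genes at the top were of mixed origin. Glia contributed Sparcl1, a secreted synapse-promoting protein of astrocytes (2082, 1806 and 2101 TPM), Glul, the glutamine synthetase of astrocytes (1228, 1327 and 1268 TPM), and Cst3, the protease inhibitor cystatin C (1794, 1397 and 1693 TPM). Neurons contributed Eef1a2 (1644, 1198 and 1915 TPM), the elongation factor form of mature neurons, and the motor protein gene Kif5a (1221, 1249.5 and 1709 TPM). Psap, Hsp90ab1, Fth1, Tuba1a and Scd2, with functions in lysosomes, protein folding, iron storage, microtubules and lipid desaturation, had mean levels between 1309.9 and 1605 TPM. Read by class rather than by gene, the 97 cytosolic ribosomal protein genes held 2.82% ± 0.17 (SD, n = 3) of nuclear TPM. The 85 nuclear genes for oxidative phosphorylation held 1.31% ± 0.11, and the 14 elongation factor genes 1.00% ± 0.059.

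Of the top 25 entries, 3 are not messenger RNAs of nuclear genes in the usual sense. Rn18s, ribosomal RNA, lay at 2693, 3793 and 1139 TPM although the RNA had been selected for poly(A) tails. Gm29216 and Gm28661 are unprocessed pseudogenes that lie close together on chromosome 1 (24654787 to 24655278 and 24653966 to 24654646) and carry mitochondrial sequence. Over 483 aligned bases Gm29216 was 99.8% identical to mt-Co1, and Gm28661 was 100% identical to mt-Co2 over all its 681 bases. Gm29216 was high in a single library, with 819, 584 and 4724 TPM, while mt-Co1 lay at 97717, 99332 and 95986 TPM. Its count of 14008 in Ctr 3 was small beside the 893781 on mt-Co1 there.

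The 3 mitochondrial genes with an identical copy of nearly their whole sequence were low beside mt-Co1, of whose 1545 bases 483 align with its copy. The catalytic subunit gene mt-Co1 had 904805, 931555 and 893781 counts, whereas its companion subunits of the same enzyme had 6464, 7956 and 14577 counts (mt-Co2) and 2805, 12232 and 3257 counts (mt-Co3). The copy of mt-Co3, Gm28437, was 100% identical over 783 bases and had 1923, 2158 and 2006 counts. The same held for mt-Atp6, with 3899, 8717 and 5198 counts, and its copy Gm10925, which was 100% identical over 678 bases and had 3477, 3815 and 5122 counts. Reads from identical sequence cannot be assigned to 1 of 2 places, so the levels of mt-Co2, mt-Co3, mt-Atp6 and these copies are uncertain, and so is the mitochondrial share of TPM above.

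Among lncRNAs, Norad, a cytoplasmic RNA that binds Pumilio proteins, was the most abundant with 898, 985 and 889 TPM, above every other lncRNA in each library. Oip5os1 (222, 312 and 285 TPM) and the imprinted Peg13 (189, 212 and 207 TPM) came next, followed by Xist. B230209E15Rik, Dbpht2, Gm20300, Meg3, B930095G15Rik and C030017B01Rik had means from 69.0 to 96.9 TPM, and 6 of the 9 neighbouring pairs among these 10 lncRNAs overlapped in range. Nuclear lncRNAs as a class held 0.723%, 0.780% and 0.793% of TPM.

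Transmitter receptors spanned a wide range of levels. Summed over their subunits, GABA-A receptors stood highest with 1133, 1280.1 and 1263 TPM, above the 33 neuropeptide receptors in sum (544, 539 and 631 TPM), AMPA receptors (472, 528 and 519 TPM) and GABA-B receptors (502, 432 and 540.2 TPM). Dopamine receptors closed the order of 18 families with 22.6, 12.5 and 14.9 TPM. The GABA-A and neuropeptide sums exceeded the next family in every library, but AMPA and GABA-B receptors did not differ beyond their spread, since GABA-B was the higher in 2 libraries and AMPA in 1. Metabotropic glutamate, glycine, kainate, NMDA, muscarinic and adrenergic receptors followed with means from 338 down to 191 TPM, each overlapping its neighbour in range except adrenergic receptors with the histamine receptors below. From histamine receptors (147 TPM) through cannabinoid (123 TPM), serotonin (103 TPM), adenosine (90.4 TPM), nicotinic (63.3 TPM), opioid (53.9 TPM) and delta receptors (41.2 TPM) to dopamine receptors (16.7 TPM), no neighbouring ranges overlapped. The order of families rests on gene length. In scaled counts, which are not divided by length, GABA-A receptors were still highest, but AMPA receptors (29126, 33390.3 and 30599 scaled counts) stood above GABA-B receptors (22825, 19488 and 23105) in every library. NMDA receptors (16555, 17345 and 23001) then exceeded the neuropeptide (12219, 12043 and 13107), metabotropic glutamate, kainate and glycine receptors in each. A sum of TPM over a family counts RNA of subunits and not receptors, since each receptor is built from several subunits.

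**Figure D2:**
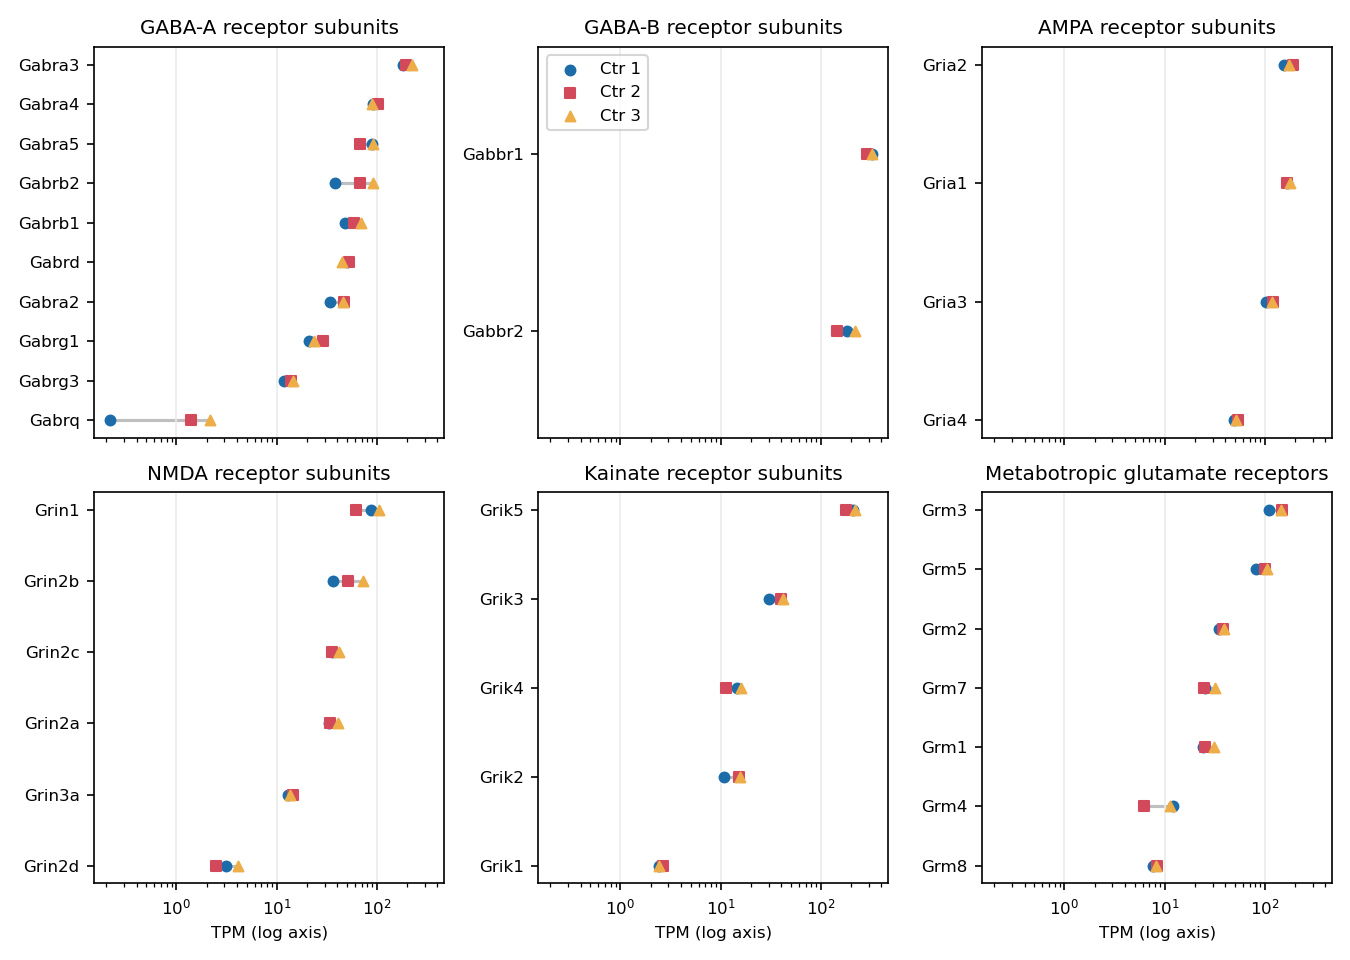
TPM (log axis) of GABA and glutamate receptor subunits with a mean of 1 TPM or more, with 1 point per control library and a grey line from the lowest to the highest. Gabrq, Gabrb2 and Grin2b spread widely, with Ctr 1 lowest and Ctr 3 highest, while Gria1 and Grik1 barely spread.

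Of 19 GABA-A subunit genes, 13 had a mean of 1 TPM or more. Gabra3, an alpha subunit, lay at 180, 192 and 224 TPM, ahead of Gabra4 (91.9, 102 and 89.7 TPM), Gabra5 (89.2, 67.6 and 90.5 TPM) and Gabra2 (34.0, 47.2 and 45.5 TPM). The order of Gabra4 and Gabra5 changed between libraries. The beta subunit gene Gabrb1 lay at 47.5, 59.0 and 69.7 TPM. It was above Gabrb2 (38.2, 67.1 and 91.3 TPM) in Ctr 1 and below it in the other libraries. Of the gamma subunits, Gabrg1 lay at 20.97, 29.0 and 23.6 TPM and Gabrg3 at 11.7, 13.7 and 14.5 TPM. Gabrd, the subunit of extrasynaptic receptors, lay at 50.1, 52.3 and 44.3 TPM. Gabra6, which marks cerebellar granule cells, had 0, 0.26 and 0 TPM, and Gabrp, Gabrr1 and Gabrr2 had no count.

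All 4 AMPA receptor subunit genes were expressed. Gria2, whose edited subunit makes the channel impermeable to calcium, lay at 155, 191 and 173 TPM and Gria1 at 167, 164 and 178 TPM, so in TPM the pair did not differ beyond the spread. In TPM Gria3 (101, 120 and 117 TPM) and Gria4 (48.7, 53.7 and 50.9 TPM) were lower in every library. By counts, without division by length, Gria2 (14456, 17991 and 16181) was well above Gria1 (6057, 6027 and 6499), and Gria3 (5965, 7169 and 6971) was above Gria1 in Ctr 2 and Ctr 3. The share of Gria2 in TPM was 34.1% ± 1.8 (SD, n = 3). Auxiliary subunits, which carry AMPA receptors to the synapse and set their kinetics, summed to 1128, 963 and 1205 TPM over 11 genes. Cnih2 alone lay at 403, 308 and 410.4 TPM, Cacng7 at 190, 181 and 215 TPM, and Cacng3 at 148, 104 and 162 TPM, while the stargazin gene Cacng2 had 48.3, 48.2 and 54.5 TPM. This auxiliary list was drawn up after values had been seen.

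NMDA receptors were lower than AMPA receptors in every library. Grin1, the obligatory subunit, lay at 86.0, 62.1 and 104 TPM, and Grin2b (36.4, 50.9 and 72.0 TPM), Grin2c (35.7, 35.2 and 42.1 TPM) and Grin2a (32.8, 33.9 and 40.8 TPM) lay below it. Without division by gene length Grin2b stood above Grin1 in every library, with 5420, 7678 and 10779 counts beside 4999, 3654 and 6103. Grin2a, whose share rises as cortex matures, stood at 0.901, 0.666 and 0.567 of Grin2b. It was lower in every library, but by an amount that varied with Grin2b itself, which was lowest in Ctr 1 and highest in Ctr 3. Grin3a had 12.9, 14.4 and 13.5 TPM and Grin3b 0, 0 and 0.15 TPM.

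Grik5, a high-affinity kainate subunit that needs a partner to reach the surface, lay at 206, 176 and 216 TPM and made up 74.7% ± 3.1 (SD, n = 3) of kainate subunit RNA. Its possible partners Grik3 (30.0, 39.7 and 41.6 TPM), Grik2 (10.7, 15.1 and 15.7 TPM) and Grik1 (2.43, 2.65 and 2.44 TPM) were much lower. Grm3 (110.4, 146 and 145 TPM) and Grm5 (80.9, 99.2 and 104 TPM) led the metabotropic receptors, with Grm3 at 3.58 ± 0.37 of Grm2. Grm6, known from the retina, had at most 0.25 TPM. The beta subunit of glycine receptors, Glrb, stood out with 229, 267 and 248 TPM beside 24.5, 20.03 and 26.1 TPM for Glra2 and under 1 TPM for Glra1, the alpha subunit of adult spinal cord. GABA-B receptors need both of their subunits, and Gabbr1 exceeded Gabbr2 by a factor of 1.74 ± 0.26.

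Drd1 was the main dopamine receptor with 17.4, 8.85 and 9.47 TPM, against 2.16, 3.23 and 2.74 TPM for Drd2. The ratio of Drd1 to Drd2 was 8.06, 2.74 and 3.46. All of these Drd2 values rest on few reads, 33, 50 and 42 counts, and Drd3 had none. Htr2a, the excitatory serotonin receptor of pyramidal cells, led its family with 35.7, 30.4 and 34.2 TPM, and 9 of 14 serotonin receptor genes had a mean of 1 TPM or more. Adrb1 (55.7, 58.6 and 71.7 TPM) and Adra1d (42.9, 47.9 and 59.3 TPM) led the adrenergic receptors. For acetylcholine, Chrm1 lay at 87.9, 85.6 and 84.0 TPM, Chrm4 at 65.0, 47.0 and 66.8 TPM and Chrm3 at 41.6, 40.3 and 41.5 TPM. Nicotinic receptors were represented by Chrna4 (23.8, 29.3 and 24.8 TPM) and Chrnb2 (20.27, 20.996 and 20.91 TPM), which form the main cortical subtype, and 11 of their 16 genes had a mean below 1 TPM.

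Cnr1, the cannabinoid receptor of axon terminals, lay at 115, 130 and 121 TPM, and Hrh3, the presynaptic histamine receptor, at 119, 115 and 139 TPM. Adora1, an inhibitory adenosine receptor, had 70.4, 82.4 and 76.0 TPM. Opioid receptors were led by the nociceptin receptor gene Oprl1 (36.9, 39.3 and 35.2 TPM), whereas the mu receptor gene Oprm1 was close to absent with 15, 0 and 5 counts. Peptide receptors were led by Adcyap1r1, the receptor for PACAP (102, 112 and 115 TPM), Ntsr2 (106, 91.0 and 104 TPM) and the cholecystokinin receptor gene Cckbr (93.2, 68.8 and 121 TPM). Oxtr, the oxytocin receptor, had 4.25, 3.65 and 3.57 TPM. The vasopressin receptor genes Avpr1b and Avpr2 had no count.

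Genes for making and moving transmitters followed the same division. The vesicular glutamate transporter of cortex, Slc17a7, lay at 816, 749 and 747 TPM, and its subcortical counterpart Slc17a6 at 5.50, 6.90 and 4.98 TPM. Gad1 (45.2, 71.3 and 40.5 TPM) and Gad2 (42.4, 45.8 and 40.0 TPM), which make GABA, and Slc32a1, which loads it into vesicles (22.9, 27.5 and 31.9 TPM), were well below it. Slc17a7 exceeded Slc32a1 by a factor of 35.6, 27.2 and 23.4 in TPM, with a mean of 28.7 that became 55.4 without division by gene length. The astrocytic glutamate transporters Slc1a2 (892, 1230.1 and 1218 TPM) and Slc1a3 (313, 370 and 351 TPM) lay above and below Slc17a7 in every library, in that order. Of 13 genes for monoamine and acetylcholine synthesis and transport, 10 had a mean below 1 TPM. Slc6a4, Slc6a2 and Hdc had no count, and Th, tyrosine hydroxylase, had 0, 50 and 13 counts.

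Among the cell type lists, those of excitatory neurons, astrocytes and oligodendrocytes had the highest sums. The summed level was 5448, 4433 and 5622 TPM for 9 genes of excitatory cortical neurons, 2353, 2800 and 2712 TPM for 10 astrocyte genes, and 1651, 2231 and 1612 TPM for 10 oligodendrocyte genes. The interneuron class genes, which include Cck, summed to 1051, 778 and 1265 TPM. Microglial genes, 10 in number, followed with 676, 754 and 762 TPM and 10 endothelial genes with 448, 503 and 515 TPM. The 9 genes of inhibitory neurons together held 144, 174 and 143 TPM. Since the lists differ in which genes they hold, these sums do not give the number of cells. All 13 cortical layer genes had a mean of 1 TPM or more, from Rasgrf2 of upper layers (58.4, 62.1 and 85.4 TPM) and Fezf2 of layer 5 (45.7, 30.9 and 46.6 TPM) down to Nxph4 and Scnn1a.

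**Figure D3:**
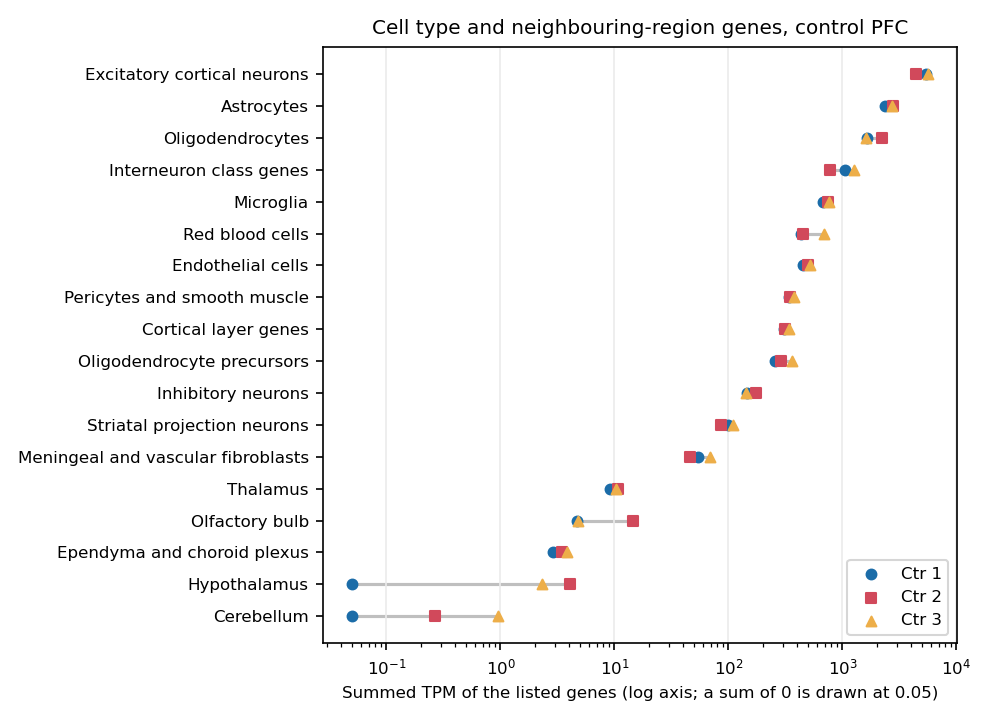
Summed TPM (log axis) of gene lists for cell types and neighbouring brain regions, with 1 point per control library and a grey line from the lowest to the highest. Excitatory and inhibitory neurons, glia and endothelial cells lie above 100 TPM, while hypothalamus and cerebellum genes lie near 0, and the olfactory bulb list is separated by Ctr 2.

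Interneuron classes differed strongly in level. Cck, which excitatory neurons also make, lay at 551, 341 and 666 TPM, and Sst at 255, 218 and 351 TPM. Lamp5 (101, 74.1 and 109 TPM) and Npy (63.4, 48.3 and 56.6 TPM) came next, ahead of Vip (29.3, 31.5 and 25.4 TPM) and Pvalb (18.4, 17.1 and 15.8 TPM). By counts, without division by length, Lamp5 (1773, 1320 and 1919) stood above Sst (1103, 953 and 1524) and Vip (598, 651 and 520) above Npy (215, 166 and 193) in every library. Among these 6 genes neighbouring TPM ranges overlapped between Cck and Sst, and even there Cck was the higher in every library. The ratio of Sst to Pvalb was 13.8, 12.7 and 22.2. Adarb2 (0.929, 4.02 and 2.14 TPM) and Calb2 varied most within the list, with excess CVs of 0.664 and 0.549, and both were highest in Ctr 2. Other peptide precursors were Penk (49.2, 35.3 and 33.7 TPM), Adcyap1 (33.7, 28.3 and 30.1 TPM) and Pdyn (19.6, 20.03 and 17.7 TPM), while Gal had no count.

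Pituitary genes had no count in any library, the 4 cerebellar genes had at most 9 counts each over the 3 libraries, and the choroid plexus gene Ttr had 0.56 TPM in Ctr 2 and none elsewhere. Thalamus genes were low, with 9.10, 10.7 and 10.3 TPM in sum, from Prkcd (143, 134 and 168 counts), Tcf7l2 (124, 179 and 151 counts) and Lef1 (130, 180 and 129 counts). Striatal projection neuron genes were present (99.2, 86.7 and 110 TPM in sum), among them Ppp1r1b (33.4, 26.1 and 34.7 TPM) and Pde10a (14.7, 17.1 and 18.0 TPM), which cortex also expresses, but the striatal transcription factor gene Isl1 had no count. The olfactory bulb list stood apart in Ctr 2, with 4.70, 14.5 and 4.75 TPM. Each of its 4 genes was highest there: Cdhr1 with 109, 248 and 118 counts, Doc2g with 2, 47 and 0, Omp with 5, 25 and 3, and Eomes with 0, 16 and 0. Hypothalamic genes had few counts and none in Ctr 1, with 0, 13 and 1 for Agrp, 0, 9 and 6 for Pmch, 0, 0 and 4 for Pomc, and 0, 0 and 1 for Oxt.

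The libraries differed from each other by more than counting error. Pearson's r of log2 values over genes was 0.966 between Ctr 1 and Ctr 2, 0.978 between Ctr 1 and Ctr 3 and 0.972 between Ctr 2 and Ctr 3, and the chi-square per degree of freedom of their counts was 24.1, 18.3 and 24.3. Genes are not independent replicates, so r is given as a description. To rank genes, the coefficient of variation (CV) of the scaled counts was taken over the 3 libraries, and the part expected from counting was removed from its square, which leaves the excess CV. Excess CV holds differences between animals, dissections and library preparations alike. Over the 12699 genes with a mean scaled count of 50 or more, its median was 0.130, and the common value estimated by edgeR was 0.190. It was 0 for 896 genes and 0.3 or more for 1440 genes, or 11.3%.

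**Figure D4:**
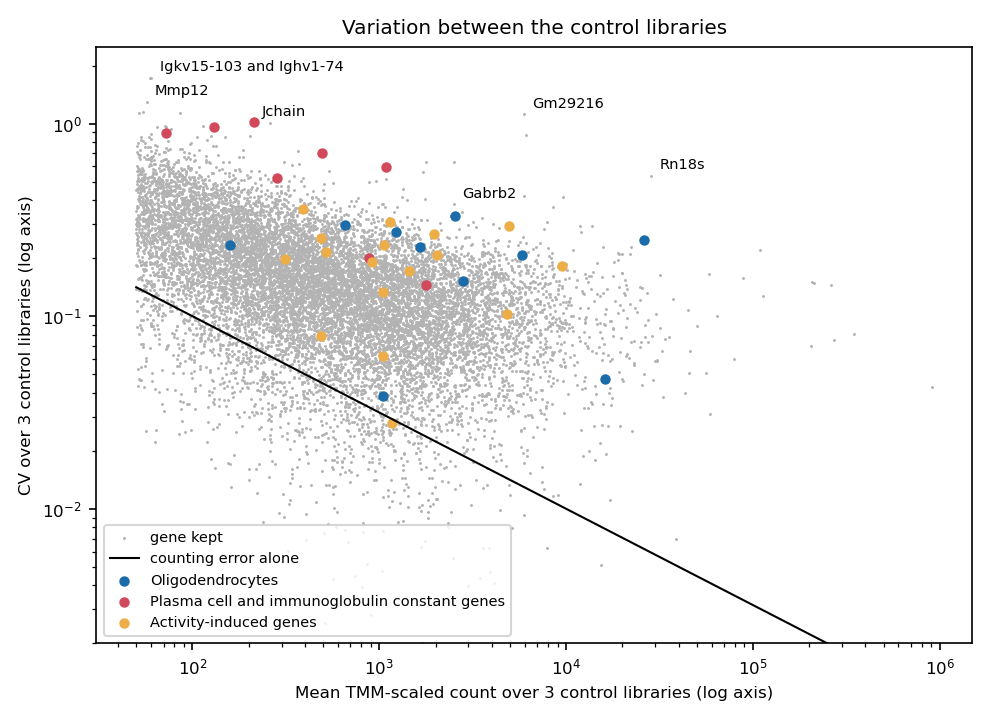
CV over the 3 control libraries against the mean scaled count of each gene (both log axes), with the CV expected from counting alone as a black line. Immunoglobulin genes lie above most genes of the same count, and the mitochondrial copy Gm29216 and the ribosomal RNA Rn18s stand above all genes of similar abundance.

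Excess CV was lower in more abundant genes even after counting error was removed. Its median was 0.269 for genes with a mean count from 50 to 100, 0.126 from 300 to 1000, and 0.0868 in the 201 most abundant genes. lncRNAs (median 0.202, 295 genes) and pseudogenes (0.217, 225 genes) varied more than protein-coding genes (0.127, 12084 genes), although they are also less abundant as classes. X-linked genes (0.128) were like autosomal genes (0.130) in median, but 14.3% of them had an excess CV of 0.3 or more, beside 11.2% of autosomal genes. The 8 immunoglobulin genes kept had a median of 0.792, but Igkv15-103 and Ighv1-74 were kept only through a single library where they are high.

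Length and GC content of genes moved with the libraries. The 4234 shortest genes had a median log2 deviation from the mean of the libraries of 0.11, -0.07 and -0.01, and the 4232 longest had -0.08, 0.04 and 0.04. The 4229 genes richest in GC had 0.07, -0.11 and 0.05 and the 4229 poorest had -0.05, 0.08 and -0.02. Over all genes the medians were 0.01, -0.01 and 0.01. Both shifts were also removed with a smooth curve per library, and corrected values are given beside several of the lists below.

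The 2 genes with the highest excess CV were variable segments of antibody genes, each found in a single library. Igkv15-103 had 176, 0 and 0 counts and Ighv1-74 had 0, 178 and 0 counts. Antibody-producing plasma cells each rearrange 1 variable segment per chain, so the set of segments seen in a tissue depends on which clones are present. A further 3 of the 20 most variable genes belong to this machinery: Jchain, which joins secreted antibody, with scaled counts of 114, 461 and 62.0, Igha with 27.8, 269 and 93.0, and Ighg3 with 0, 123 and 93.0. The kappa constant gene Igkc was abundant for a gene of blood-borne cells, with 383, 504 and 121 TPM. Other plasma cell genes were low or ordered otherwise. Sdc1 had 12, 55 and 12 counts and Mzb1 had 0, 0 and 1, while Xbp1 was highest in Ctr 1, with 102, 77.0 and 91.7 TPM.

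Most of the variable segments seen passed a mark of 10 counts in a single library. Among 218 variable segments in the table, 29 had 10 or more counts in at least 1 library, and 22 of these passed that mark in exactly 1 library, 6 in exactly 2 and 1 in all 3. That 1 was Igkv10-96, with 36, 13 and 12 counts. Some of the 22 had fewer counts in another library, such as Iglv3 with 6, 15 and 0. The same share among other genes of such low counts was not worked out. Variable segments summed to 606, 994 and 149 counts, spread over 11, 21 and 5 segments of 10 or more counts. Ighm was the steadiest constant gene with 75.8, 92.5 and 64.4 TPM, while Ighg2b had 46.8, 37.5 and 6.63 TPM. The T cell receptor gene Trbc2 lay at 26.8, 11.4 and 26.6 TPM, but Cd3e, Cd3g and Cd3d, which every T cell needs, had at most 0.41 TPM. Red blood cell genes, which reflect blood left in the tissue, were highest in sum in Ctr 3 (434, 450 and 693 TPM). Of these 5 genes, 3 were highest there and 2 in Ctr 2. Their median log2 deviations were -0.22, 0.04 and 0.09, but -0.36, 0.19 and 0.11 after a length correction, so the highest library changed. The plasma cell and immunoglobulin constant genes were lowest in sum in Ctr 3 (669, 811 and 317 TPM), where 5 of the 8 kept were lowest. These lists of plasma cell and T cell genes were drawn up after values had been seen.

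Several of the most variable genes have relatives with similar names, and only the alpha globin pair was compared by sequence. Srp54b, a signal recognition particle subunit, had 549, 192 and 37.8 scaled counts, and its neighbour Srp54a had 9.26, 7.03 and 26.2. Entpd4b had 10.3, 101 and 230 scaled counts, while Entpd4 had no count. Hba-a1 and Hba-a2, which encode the same alpha globin, differ at 1 of 429 coding bases, and the first varied with 159, 144 and 267 TPM beside 43.5, 49.4 and 53.2 TPM. The levels of this pair are uncertain one by one. The pseudogenes H3f3c, Btf3-ps1 and Gm10705 and the gene Erdr1 (264, 6.03 and 343 scaled counts) were also among the 20, and whether reads are shared with copies of these genes, of Srp54b or of Entpd4b was not tested. Lars2 moved with Rn18s: its scaled counts were 2089, 4260 and 1160 beside 30693, 42763 and 12297 for the ribosomal RNA, an order that is the same in both. The part of ribosomal RNA in the count of Lars2 was not tested.

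The other protein-coding nuclear genes among the 20 most variable had varied functions. Mmp12, a macrophage elastase, had 13.4, 15.1 and 142 scaled counts and stood out in Ctr 3. Highest in Ctr 2 were Iigp1, an interferon-induced GTPase, with 57.6, 249 and 68.8, and Sp8, a transcription factor of olfactory bulb interneurons, with 49.4, 151 and 17.4. Cbx8, a Polycomb protein, was highest in Ctr 1 with 119, 17.1 and 43.6. Among the abundant genes, with a mean count of 1000 or more, the receptor subunit gene Gabrb2 had an excess CV of 0.380, the kinase gene Hipk2 (723, 1329.9 and 1950.2 scaled counts) one of 0.459, and the fibronectin gene Fn1 (1245, 1441 and 2555) one of 0.404. These 3 were chosen after their values were seen.

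At the quiet end, 137 of the 4102 genes with a mean count of 1000 or more varied by no more than counting error alone would give, so their excess CV was 0. Among the 10 with the lowest total CV, Tbl1x, a subunit of the NCoR repressor complex, had 1693, 1698 and 1699 scaled counts. Gpr158, an orphan receptor of neurons, had 3937, 3930.3 and 3902. Ptpra, Psip1, Nmt1, Tet3, Khdrbs1, the lncRNA Rian and the citrate synthase gene Cs were also among them, with total CVs between 0.00399 and 0.00629. Each of the 10 lay below the CV that counting alone would give, as Tbl1x did with 0.00202 beside 0.0243. The order among them is therefore not informative. After the length correction the excess CV of Rian was 0.169 and that of Tet3 0.112.

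Oligodendrocyte genes were higher in Ctr 2 than in the other libraries. All 10 were highest there, with a median log2 deviation of 0.36, against -0.09 and -0.18 in Ctr 1 and Ctr 3, while 34.1% of all genes kept were highest in Ctr 2 and 31.2% in Ctr 3. Mal, a proteolipid of myelin, lay at 132, 206 and 116 TPM and Mog at 61.9, 82.1 and 46.4 TPM. Mbp, with 318, 324 and 311 TPM, and Mag, with 41.0, 44.3 and 43.4 TPM, hardly varied. Of 6 precursor genes, 4 were highest in Ctr 3 and 2 in Ctr 2. The median in Ctr 2 was 0.34 after a GC correction and 0.41 after a length correction. The olfactory bulb list was highest in the same library, and its part in this result was not tested.

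**Figure D5:**
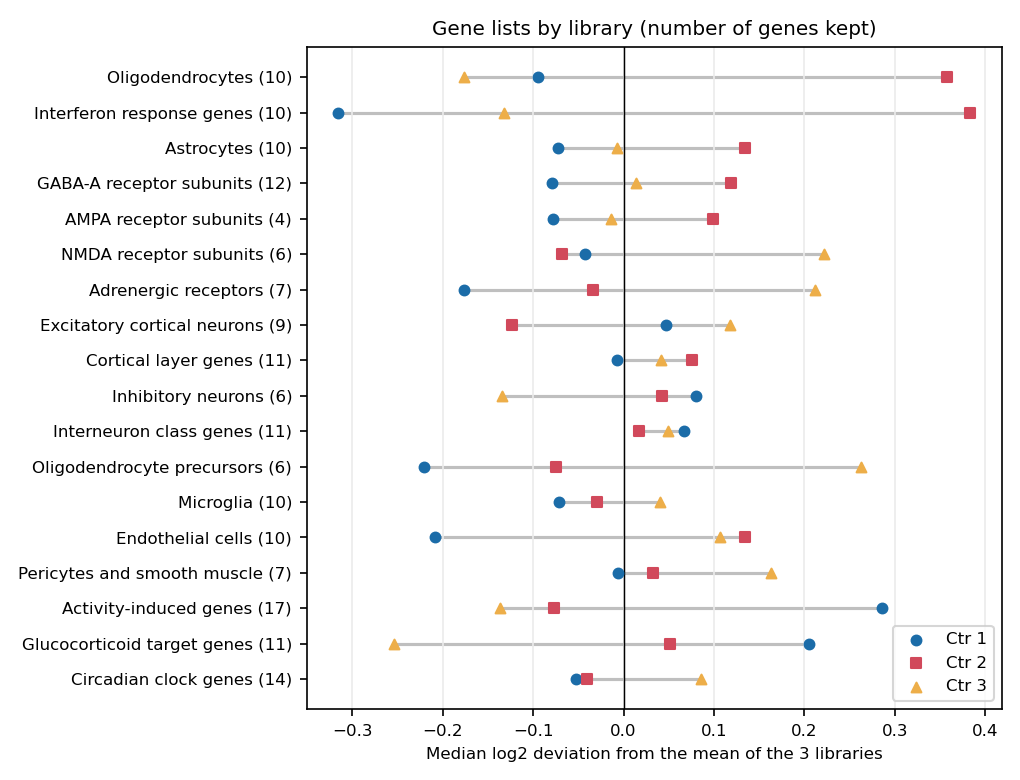
Median log2 deviation of each gene list from the mean of the 3 libraries, with 1 point per control library, and the number of genes kept in parentheses. Oligodendrocyte and interferon genes are highest in Ctr 2, activity-induced genes in Ctr 1, and the interneuron class genes have medians close to 0 in every library, although their members moved in different directions.

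Of 14 interferon response genes 10 were kept, and these were also high in Ctr 2. There 9 of the 10 were highest, against 34.1% of all genes kept, with median log2 deviations of -0.32, 0.38 and -0.13. Of these, Rsad2 (32.9, 128 and 51.3 scaled counts) reached the minimum mean count only with Ctr 2. B2m lay at 519, 636 and 512 TPM, Ifit3 at 15.1, 34.8 and 22.2 TPM and Bst2 at 2.40, 11.7 and 8.82 TPM. At low levels, Irf7 and Isg15, which were not among the genes kept, had their lowest value in Ctr 2. Irf7 had 4.42, 0 and 1.67 TPM and Isg15 1.42, 0 and 2.36 TPM. Microglial genes had medians of -0.07, -0.03 and 0.04, or -0.13, 0.12 and 0.03 after the length correction.

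Activity-induced genes, which neurons switch on within minutes of firing, were highest in Ctr 1 in 13 of 17 cases, against 34.7% of all genes kept. Egr1 lay at 417, 325 and 314 TPM, Arc at 339, 265 and 195 TPM, and Fos at 83.1, 68.6 and 68.8 TPM. Bdnf (25.4, 27.8 and 19.8 TPM) and Nr4a3 (58.9, 64.0 and 38.9 TPM) were highest in Ctr 2 instead. The median deviation was 0.29 in Ctr 1 and 0.22 after either correction. Of 11 glucocorticoid targets 7 were highest in Ctr 1, with medians of 0.21, 0.05 and -0.25, but after the length correction the medians were 0.14, 0.14 and -0.27, so that Ctr 3 was low and the other libraries were level. Tsc22d3 lay at 75.5, 58.0 and 40.9 TPM. Clock genes, which follow the time of day, differed less, with medians of -0.05, -0.04 and 0.09.

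Neuronal and receptor lists differed in their medians. Excitatory neuron genes had medians of 0.05, -0.12 and 0.12, which were 0.04, -0.05 and 0.05 after the GC correction, and a median excess CV of 0.16. Interneuron class genes had medians between 0.02 and 0.07, but a median excess CV of 0.21 beside 0.130 over all genes. Their members moved in different directions. Calb2 was highest in Ctr 2, with 5.94, 19.3 and 11.4 TPM, while Cck was lowest there, with 551, 341 and 666 TPM. AMPA subunits had a median excess CV of 0.06 and GABA-A subunits of 0.11, while kainate subunits (0.15), NMDA subunits (0.15) and neuropeptide receptors (0.18) lay above the 0.130 over all genes. NMDA subunits had medians of -0.04, -0.07 and 0.22, and 5 of 6 were highest in Ctr 3, against 31.2% of all genes kept. The last median was 0.15 after the GC correction and 0.17 after the length correction. Of 95 receptor genes kept, 13 had an excess CV of 0.3 or more, which is 13.7% beside 11.3% of all genes. Drd1 led them with 0.418, followed by the somatostatin receptor gene Sstr4 (0.400, with 18.0, 33.2 and 45.8 TPM) and the orexin receptor gene Hcrtr1 (0.399, with 3.90, 5.18 and 2.16 TPM). Gabrb2 was the most abundant of the 13 in mean TPM, but in mean scaled counts Grin2b (7910) stood above Gabrb2 (2496). Grin2b had an excess CV of 0.308, which the length correction moved to 0.186. All 7 adrenergic receptor genes kept were highest in Ctr 3, against the same 31.2%, with medians of -0.18, -0.03 and 0.21, but after the GC correction the medians were -0.22, 0.17 and 0.09, so the highest library changed.

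Of the genes taken from the study's own text, Cntnap3, a contactin-associated adhesion protein (chromosome 13, 64883996 to 65051769), lay at 2.33, 1.34 and 1.79 TPM, from 89, 52 and 69 counts. Paxip1, an adaptor of histone methyltransferase complexes, had 11.6, 13.1 and 17.4 TPM, Zgpat, a transcriptional repressor, had 8.63, 13.0 and 11.0 TPM, and Cebpb, a transcription factor of inflammation, had 12.4, 5.48 and 19.0 TPM. Synaptic scaffold genes of the same list were higher, with Dlg4, which encodes PSD-95, at 160, 131 and 189 TPM and the gephyrin gene Gphn at 42.8, 50.1 and 56.4 TPM.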

How the data were processed

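PFC tissue of female mice had been profiled by poly(A)-selected RNA-seq, and the 3 Ctr libraries were used. Per the labels, reads were aligned with STAR and counted with featureCounts. Versions, the mouse build and the annotation are not given in the sources used here; the build in the submitters' processing notes is a human one, and coordinates are as the table lists them. The authors deposited whole-number counts per gene, and TPM values that they made from these counts and the gene length beside them, which sets every comparison between genes. FPKM columns were not used. Scaling used edgeR 4.0.16 TMM in R 4.3.3, with DESeq2 1.42.0 size factors as an alternative. Excess CV (biological CV) needed a mean scaled count of 50 and was tested on simulated data. Log2 deviations used a pseudocount of 0.5. With 1 group there was no comparison to test. Trends with gene length or GC content were taken out of each library with a loess fit (span 0.3), and GC content came from GENCODE M21 transcripts for 99.9% of genes kept. A depth of 19382848 to 20750857 counts limits precision, and a count of 3 or fewer was read as the floor. Genes named were the 25 highest nuclear genes and 10 lncRNAs, members of fixed lists, the 20 most and 10 least variable genes and Calm2 and Calm3, and a few genes of these lists are not reported here. Lists and members were chosen with earlier results of these data known, and genes named outside this rule were chosen after their values were seen.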

Additional observations from a re-analysis of the deposited data

How the results depend on the processing

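No paired analysis was possible because a single group was described. A difference between levels was taken as moved when it exceeded the SD between libraries, or for the common and median CV the SD of the values that leave out 1 library. Numbers of genes were judged by a fixed ratio of the larger to the smaller instead. By TPM rather than counts, the mitochondrial share was 37.3% in place of 13.3%. Without division by gene length, the 10 and 100 most abundant nuclear genes held 3.41% and 15.1%, the ratio of Grin2a to Grin2b was 0.513, Gria2 took 52.1% of AMPA subunits and the ratio of Slc17a7 to Slc32a1 was 55.4, so orders among genes rest on the gene lengths used. On that scale 12 of the 25 most abundant nuclear genes were the same. Keeping genes down to a mean count of 10 gave a common CV of 0.250, a median of 0.150 and 3582 genes at 0.3 or more. A minimum of 200 gave a common CV of 0.154 and 380 genes. Leaving out 1 library at a time moved the common CV between 0.163 and 0.215, the median between 0.0854 and 0.119, the share of the 10 most abundant genes between 4.15% and 4.25%. The lowest CVs came without Ctr 2. Detected genes numbered from 14232 to 14592 with 1 library left out. Orders between genes and families were not part of these alternatives, and several turned without division by length, among them Calm2 with Calm3, Grin1 with Grin2b, Sst with Lamp5 and neuropeptide with AMPA receptors. A correction for GC content gave 1320 genes at 0.3 or more in place of 1440. Nuclear totals with nuclear protein-coding genes other than immunoglobulin genes gave 1245. Both settings were chosen after seeing the data. The restriction to nuclear protein-coding genes alone gave 1242.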
